A study of Mus musculus with 9 samples.

Results

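Imprinted genes and the proteins that keep imprints were followed in E14 mouse embryonic stem cells grown in 3 media. The set held 47 gene symbols chosen by name from the 24819 symbols of the table: 19 genes known for expression from the maternal copy, 25 known for expression from the paternal copy, and the imprint keepers Zfp57, Zfp445 and Trim28. All 47 were found. All cells were of the E14 line and grew on plates coated with gelatin, and the labels tell the groups apart by medium, with 3 libraries each, and name no gene change. The ES group had serum medium containing leukemia inhibitory factor (LIF), the 2iLIF group N2B27 with 2iLIF, which is LIF together with inhibitors of MEK and GSK3, and the EPSCM group expanded potential stem cell medium. Whether libraries of 1 medium are separate cultures is not stated, so a p-value here measures the spread between libraries, and that spread may be technical.

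An imprinted gene is read from only 1 of its parental copies, because DNA methylation laid down in the egg or sperm marks a control region and survives the erasure of methylation in the early embryo. ZFP57 and ZFP445 are zinc finger proteins that bind the methylated copy of such regions and bring in TRIM28 (also called KAP1), a scaffold for histone and DNA methyltransferases. Many imprinted genes act on fetal and placental growth, paternally expressed ones such as Igf2 often promoting it and maternally expressed ones such as Cdkn1c, Grb10, Phlda2 and Igf2r often restraining it. Stem cell lines are known to lose or gain imprinted methylation in culture. Neither methylation nor the parental origin of a transcript was measured here: each value sums both copies of a gene.

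The hexamer TGCCGC is the core of the sequence that ZFP57 binds when its CpG is methylated. The 250 bases upstream of the annotated starts were searched for it on both strands, as TGCCGC or its complement GCGGCA, using the RefSeq promoter table of GRCm38.p6, a later build than the authors' mm9. Of the 47 genes, 38 matched that table by symbol. The hexamer was found upstream of 5 of 20 paternally expressed genes with a window (25.0%), namely Mcts2, Mest, Nap1l5, Plagl1 and Zdbf2. It was found for 2 of 15 maternally expressed genes, Meg3 and Zim1, and for 1 of the 3 keepers, Trim28. Over all genes of the table it was found for 2660 of 27025 (9.84%). The 4 windows below are shown because they belong to paternally expressed genes that were called in at least 1 comparison; each runs 5′ to 3′ along its gene's strand, and capitals mark the hexamer or its complement. Matches are descriptions of letters, not of binding.
Plagl1 (chr10:13090582-13090831, plus strand): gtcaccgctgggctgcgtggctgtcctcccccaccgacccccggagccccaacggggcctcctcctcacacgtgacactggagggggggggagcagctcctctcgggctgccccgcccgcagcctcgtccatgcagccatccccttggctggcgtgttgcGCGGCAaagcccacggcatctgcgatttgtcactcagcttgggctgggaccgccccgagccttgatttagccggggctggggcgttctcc
Mest (chr6:30737800-30738049, plus strand): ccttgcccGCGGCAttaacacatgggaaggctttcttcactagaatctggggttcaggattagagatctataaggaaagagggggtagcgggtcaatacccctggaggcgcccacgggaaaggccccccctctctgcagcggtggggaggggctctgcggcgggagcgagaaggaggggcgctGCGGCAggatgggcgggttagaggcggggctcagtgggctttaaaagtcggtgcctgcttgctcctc
Mcts2 (chr2:152686898-152687147, plus strand): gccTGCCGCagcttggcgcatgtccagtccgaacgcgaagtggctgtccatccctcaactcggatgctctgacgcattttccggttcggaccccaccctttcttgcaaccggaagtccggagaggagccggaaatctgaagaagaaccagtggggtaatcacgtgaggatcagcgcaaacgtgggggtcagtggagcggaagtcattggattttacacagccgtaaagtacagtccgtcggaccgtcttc
Zdbf2 (chr1:63200108-63200357, plus strand): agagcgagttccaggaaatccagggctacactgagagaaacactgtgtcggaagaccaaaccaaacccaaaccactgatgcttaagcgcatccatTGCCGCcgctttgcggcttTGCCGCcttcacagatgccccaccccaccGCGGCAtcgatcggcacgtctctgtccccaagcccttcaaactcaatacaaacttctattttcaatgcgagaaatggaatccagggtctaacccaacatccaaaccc
The Plagl1, Mest and Mcts2 windows lie at starts known to be methylated on the maternal copy. Mest also has an annotated start further upstream, whose window held no match. The Zdbf2 window belongs to the upstream of its 2 annotated starts in the table, and the other held no match. The windows of Peg3 and Usp29, which are read outward from a shared region, overlapped and held no match.

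Levels are given in FPKM, fragments scaled by transcript length and library total, so that they can be compared between genes per length. Each difference was taken between means of log2(FPKM + 1) and is given ± SE from limma. This scale understates the change of genes near or under 1 FPKM. After a mean level in FPKM, ± gives the SD of the 3 libraries of the medium. A gene was called at an adjusted p under 0.05 and a difference of at least 1. The adjusted p alone passed for 73.1% of all tested genes between EPSCM and ES, 68% between EPSCM and 2iLIF and 67% between 2iLIF and ES, so the size of a difference says more than its p. Of the 47 genes, 38 reached 1 FPKM in at least 3 of 9 libraries and were tested: 17 maternally expressed, 18 paternally expressed and the 3 keepers. The 9 others are given by level only. Dlk1 and Igf2 reached 1 FPKM only in the ES libraries and Peg12 only in the EPSCM libraries. Their place among the tested genes thus rests on the medium where they are high. The lowest values imply a rough depth at which 1 fragment in 1 kb is worth 0.0379 to 0.0537 FPKM. Libraries summed to 546636 to 600728 FPKM. ES replicate 1, 2iLIF replicate 1 and EPSCM replicate 2 stood apart from the other 2 of their medium: pairs with them correlated at r = 0.9855 to 0.9902 across genes, against 0.9959 to 0.9967 for the rest, genes not being independent replicates. Each medium has 1 such library. The 12 stem cell markers checked were expressed in every medium, with summed levels of 6313 to 7388 FPKM in ES, 6904 to 8107 in 2iLIF and 5536 to 6249 in EPSCM, the lowest. Zfp42 (-1.70), Lin28a (-1.36) and Pou5f1 (-1.11) were called lower in EPSCM than in ES; their part in the results was not tested.

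Across the 3 comparisons, 21 of the 38 tested genes were called in at least 1. A difference of any size among the media (limma's moderated F, adjusted p under 0.05) was found for 34 of 38, where 85.5% of all tested genes passed; Mkrn3, Ube3a, Commd1 and Zfp445 did not. The 3 libraries standing apart were also given a term of their own in limma. These 4 genes then had adjusted p of 0.0174, 0.0272, 0.00369 and 8.81e-06 in EPSCM against 2iLIF. Their differences there were 0.20, -0.18, 0.15 and -0.52, under the size limit. The adjusted p were 0.0294, 0.0621, 0.0117 and 2.27e-05 in 2iLIF against ES, and 0.765, 0.635, 0.487 and 0.330 in EPSCM against ES. That term was drawn from these same values, so its p are no separate support. In EPSCM against ES, 6 were higher and 9 lower (39.5% called), against a background over all tested genes of 19.7%, with 11.7% higher and 7.97% lower. In EPSCM against 2iLIF, 5 were higher and 6 lower (28.9%), where the background was 16.1%, with 10.1% higher and 5.91% lower. In 2iLIF against ES, 3 were higher and 6 lower (23.7%), where it was 14.7%, with 7.62% higher and 7.12% lower. The shares called among these genes thus lay above the background in each comparison, as a description without a test of the set. The set was chosen with earlier results of these data known. Genes of the same domain share control elements and are not independent. Comparisons that share a medium also share its libraries, so their calls are not independent of each other.

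**Figure D1:**
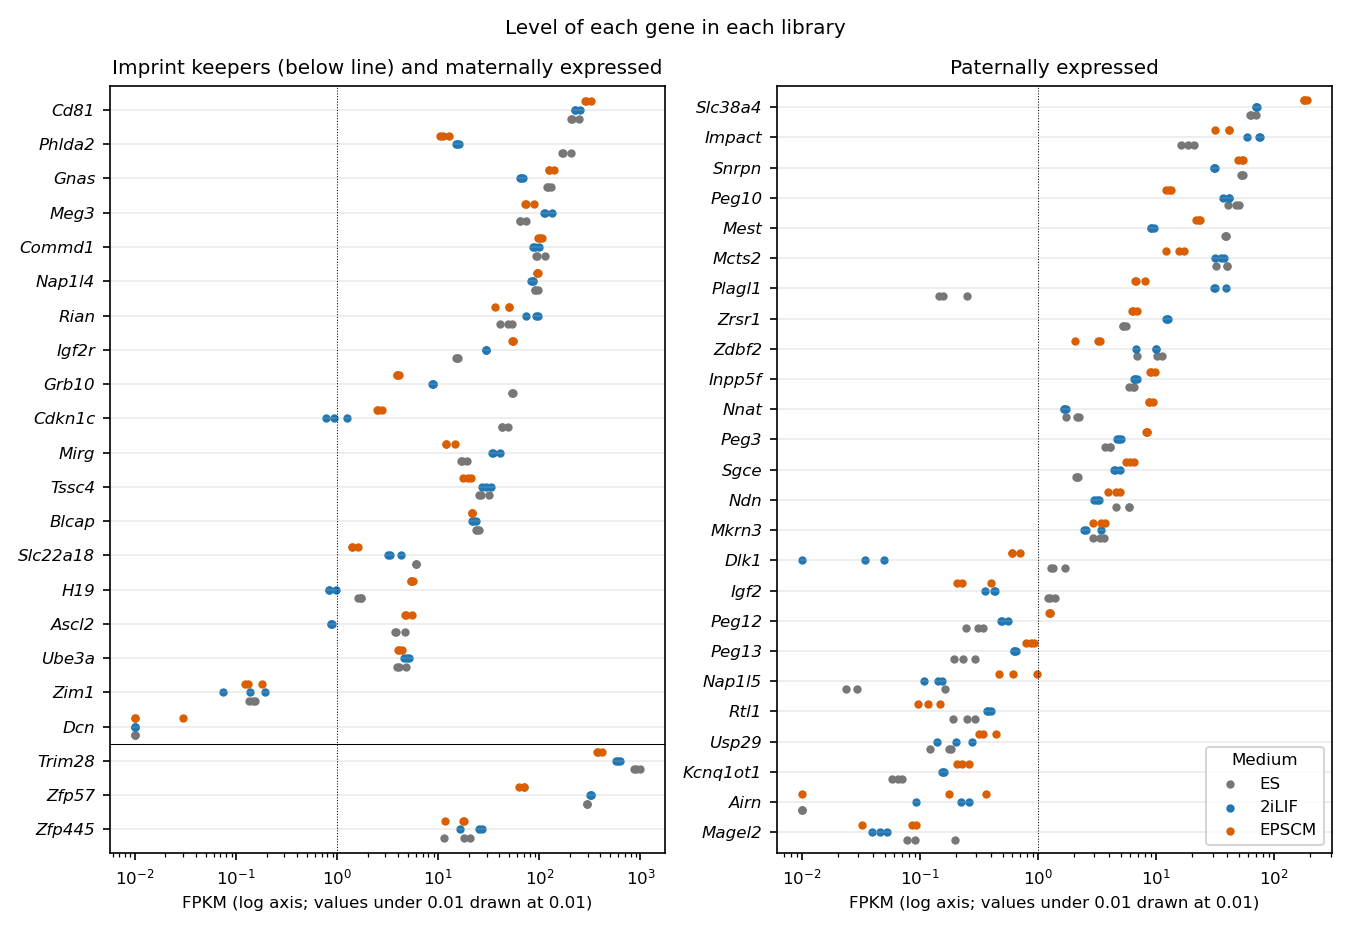
FPKM of every gene in each library on a log axis, with the keepers and maternally expressed genes on the left and the paternally expressed genes on the right; grey points are ES, blue 2iLIF and orange EPSCM libraries, and the dotted line marks 1 FPKM, and values under 0.01 are drawn at 0.01. Plagl1 runs from 0.146 FPKM in an ES library to 38.7 in a 2iLIF library, while Nap1l4 and Commd1 vary little.

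The keepers come first. Zfp57 stood at 293, 299 and 295 FPKM in the ES libraries, 317, 322 and 321 in the 2iLIF libraries and 70.1, 62.8 and 69.8 in the EPSCM libraries. All 3 EPSCM libraries lay far below the other 6, and the fall was 4.37-fold from ES and 4.73-fold from 2iLIF in mean FPKM. The EPSCM libraries differed from ES by -2.11 ± 0.05 (limma adjusted p = 1.02e-08) and from 2iLIF by -2.23 ± 0.05 (adjusted p = 7.45e-09). Between 2iLIF and ES it was 0.11 ± 0.05 (adjusted p = 0.0937).

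Trim28 was the most abundant gene of the set, at 986, 861 and 895 FPKM in ES, 623, 579 and 594 in 2iLIF and 379, 413 and 373 in EPSCM. Its levels did not overlap between any of the media, in the order ES, 2iLIF, EPSCM. EPSCM lay below ES by -1.23 ± 0.07 (adjusted p = 5.16e-07), which was called, and the steps from 2iLIF to EPSCM (-0.62 ± 0.07) and from ES to 2iLIF (-0.61 ± 0.07) were short of the size limit. Zfp445 stood at 11.3, 20.5 and 17.9 FPKM in ES, 16.4, 27.3 and 25.3 in 2iLIF and 18.02, 11.6 and 17.5 in EPSCM, and its media overlapped. The lowest Zfp445 value of each medium was that of the library that stands apart, at 0.59, 0.62 and 0.66 times the mean of the other 2. It was not called in any comparison. With those libraries as a limma covariate its difference of 0.46 for 2iLIF against ES had an adjusted p of 2.27e-05, against 0.151 without. That covariate was drawn from these same values and Zfp445 follows it, so the lower p is no separate support.

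**Figure D2:**
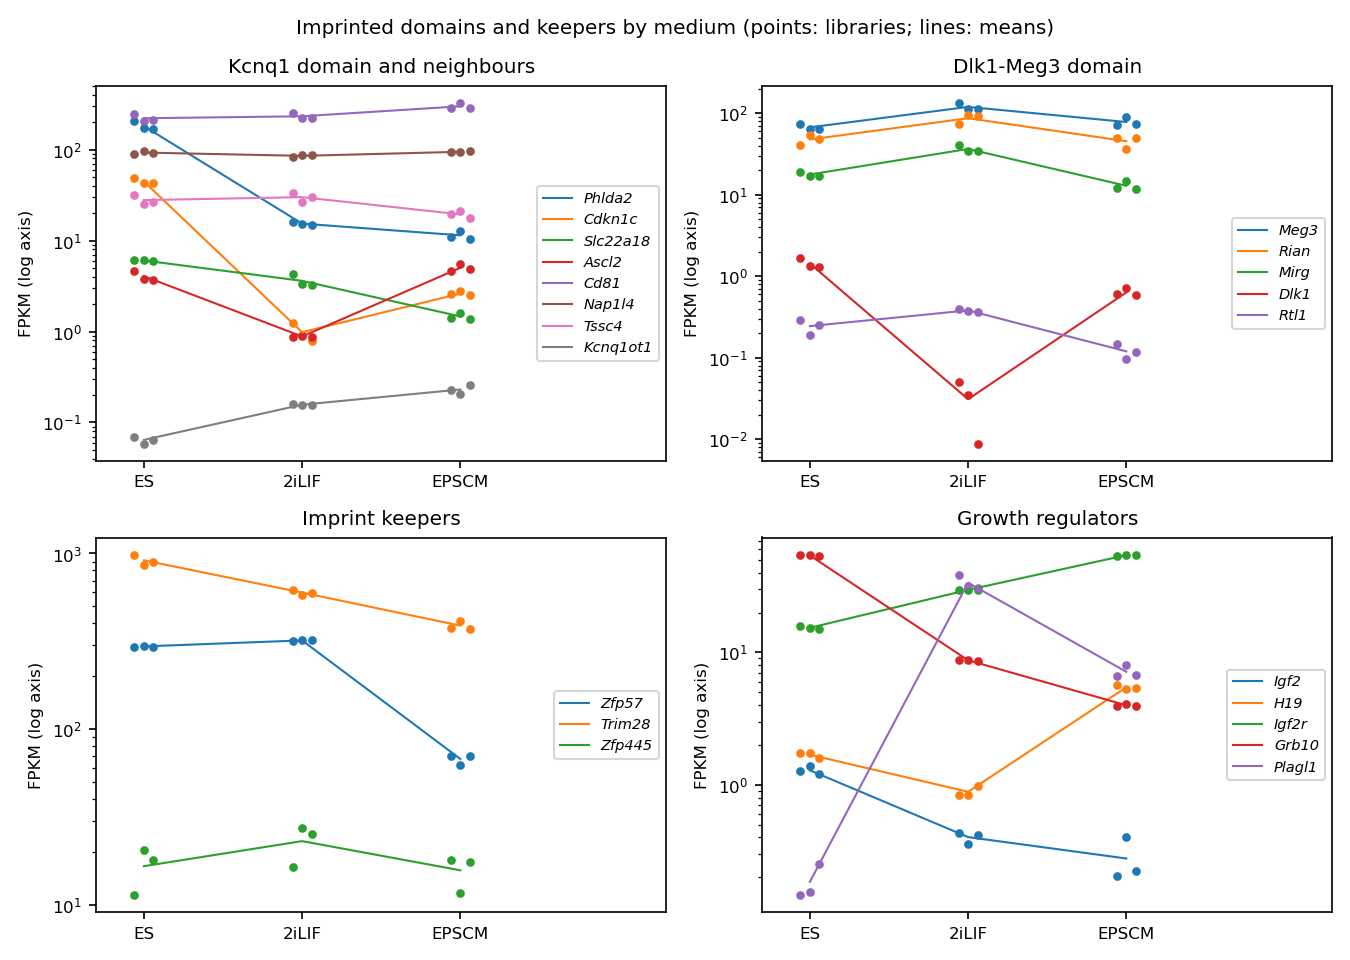
FPKM by medium on a log axis for the Kcnq1 domain with its neighbours, the Dlk1-Meg3 domain, the keepers and a group of growth regulators; points are libraries in the order of replicates 1 to 3, and lines join the means of the media. Zfp57 is lowest in EPSCM, Trim28 steps down from ES to 2iLIF to EPSCM, and Phlda2, Cdkn1c and Grb10 are highest in ES.

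In the Kcnq1 domain of chromosome 7, the paternally expressed noncoding RNA Kcnq1ot1 is known to silence neighbouring genes in cis, which are then read from the maternal copy. Phlda2, a restrainer of placental growth, stood at 205, 172 and 167 FPKM in ES, 15.95, 15.3 and 14.8 in 2iLIF and 11.0, 12.7 and 10.5 in EPSCM. It was 11.8-fold lower in 2iLIF and 15.9-fold lower in EPSCM than in ES, with differences of -3.47 ± 0.09 (adjusted p = 8.54e-09) and -3.88 ± 0.09 (adjusted p = 7.03e-09). The ES libraries held the high values, and those of 2iLIF and EPSCM, though not overlapping, differed by -0.40 ± 0.09, short of the size limit.

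Cdkn1c, an inhibitor of cyclin-dependent kinases also called p57, was at 48.9, 42.5 and 42.7 FPKM in ES, 1.25, 0.920 and 0.780 in 2iLIF and 2.56, 2.78 and 2.50 in EPSCM. Its difference for 2iLIF against ES, -4.53 ± 0.10 (adjusted p = 3.13e-09), was the largest fall on the log2(FPKM + 1) scale among the tested genes of the set in any comparison. For EPSCM against ES it was -3.66 ± 0.10. EPSCM lay above 2iLIF in every library, at 0.87 ± 0.10, a difference called with a pseudocount of 0.5 (1.08) or 0.1 (1.35). Slc22a18, a membrane transporter, fell to 1.47 ± 0.122 FPKM in EPSCM from 6.04 ± 0.0369 in ES (-1.52 ± 0.09, adjusted p = 5.11e-07), with 2iLIF between them at 3.61 ± 0.556.

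Ascl2, a transcription factor needed in the trophoblast, was at 4.67, 3.78 and 3.73 FPKM in ES, 0.874, 0.897 and 0.877 in 2iLIF and 4.68, 5.53 and 4.84 in EPSCM. The 2iLIF libraries were the low ones, by -1.42 ± 0.09 against ES (adjusted p = 8.84e-07), and EPSCM exceeded 2iLIF by 1.67 ± 0.09 (adjusted p = 2.92e-07). Tssc4, Cd81 and Nap1l4, whose imprint is known mainly from the placenta, were called in no comparison. Cd81, a tetraspanin of the cell surface, had means of 222 to 299.9 FPKM, and the histone chaperone gene Nap1l4 of 85.4 to 94.8. Tssc4 was lowest in EPSCM, at 19.4 ± 1.62 FPKM against 27.9 ± 3.47 in ES. Kcnq1ot1 itself was under the filter, at 0.0642 ± 0.00586 FPKM in ES, 0.157 ± 0.00346 in 2iLIF and 0.230 ± 0.0287 in EPSCM. Its libraries did not overlap between media. Phlda2 and Slc22a18 had the opposite order of means, Cd81 the same order, and Cdkn1c and Ascl2 were lowest in 2iLIF. It lies within Kcnq1 on the other strand, and Kcnq1 was at 0.24 FPKM or less in each medium; no source used here says whether the counting used strand, so the pair cannot be told apart, and the libraries were made from polyadenylated RNA, which may hold only part of such a transcript.

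Near the Kcnq1 domain on the same chromosome lie H19 and Igf2, which share enhancers. H19, a maternally expressed noncoding RNA, was at 1.72, 1.73 and 1.60 FPKM in ES, 0.837, 0.832 and 0.983 in 2iLIF and 5.68, 5.32 and 5.36 in EPSCM. The EPSCM libraries were high, by 1.27 ± 0.06 against ES (adjusted p = 1.48e-07) and by 1.78 ± 0.06 against 2iLIF (adjusted p = 2.38e-08), and the 2iLIF libraries were low. The paternally expressed growth factor Igf2 was at 1.27, 1.38 and 1.21 FPKM in ES, 0.430, 0.356 and 0.419 in 2iLIF and 0.205, 0.401 and 0.224 in EPSCM. All ES libraries lay above the other 6. The Igf2 difference of -0.84 ± 0.07 for EPSCM against ES was called only with a smaller pseudocount (-1.21 at 0.5). The ratio of H19 to Igf2 levels was 1.31 ± 0.0542 in ES, 2.21 ± 0.228 in 2iLIF and 21.6 ± 7.49 in EPSCM (SD, n = 3), the last resting on Igf2 values of few fragments.

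Igf2r, the maternally expressed receptor that removes IGF2 from the cell surface, was ordered ES, 2iLIF, EPSCM from low to high. Its libraries were at 15.8, 15.3 and 14.9 FPKM in ES, 29.9, 29.8 and 29.4 in 2iLIF and 53.7, 54.9 and 54.3 in EPSCM. No libraries overlapped, and the difference was called for EPSCM against ES at 1.76 ± 0.05 (adjusted p = 1.03e-08), while 2iLIF against ES, at 0.91 ± 0.05, and EPSCM against 2iLIF, at 0.85 ± 0.05, stayed under the size limit. Airn, the paternally expressed antisense RNA that silences Igf2r in other tissues, was listed at 0 in all 3 ES libraries and in EPSCM replicate 1, and at 0.0931 to 0.360 FPKM in the others.

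Grb10, an adaptor that dampens insulin and growth factor receptors, had 54.2, 54.8 and 53.2 FPKM in ES, 8.82, 8.77 and 8.57 in 2iLIF and 3.92, 4.10 and 3.94 in EPSCM. It was 6.197-fold lower in 2iLIF and 13.6-fold lower in EPSCM than in ES (differences of -2.50 ± 0.05 and -3.47 ± 0.05, adjusted p = 2.02e-09 and 5.68e-10). EPSCM also lay below 2iLIF, at -0.96 ± 0.05, just short of the limit, and that difference was called with a pseudocount of 0.5 (-1.04), with quantile normalization (-1.06) and with the same median ratio (-1.004).

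Plagl1, also called Zac1, encodes a paternally expressed zinc finger factor that regulates other imprinted genes. It stood at 0.146, 0.155 and 0.252 FPKM in ES, 38.7, 31.6 and 30.6 in 2iLIF and 6.59, 8.03 and 6.78 in EPSCM. The ES libraries were near the floor, those of 2iLIF were the highest, and EPSCM lay between with no overlap. Plagl1 was the 1 gene of the set called in all 3 comparisons, with 2iLIF above ES by 4.86 ± 0.10 (adjusted p = 3.13e-09), EPSCM above ES by 2.78 ± 0.10 (adjusted p = 5.78e-08) and EPSCM against 2iLIF at -2.09 ± 0.10 (adjusted p = 2.46e-07). Its upstream window, shown above, holds 1 hexamer and 19 CpG sites, where the median of all windows is 6.

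In the Dlk1-Meg3 domain of chromosome 12, noncoding RNAs are read from the maternal copy and protein genes from the paternal copy. Meg3, the long noncoding RNA whose level is used to judge the imprint of stem cell lines, had 73.3, 64.2 and 64.2 FPKM in ES, 134, 114 and 112 in 2iLIF and 72.2, 88.9 and 73.5 in EPSCM. Rian, a host of small nucleolar RNAs, had 41.2, 53.5 and 48.4 FPKM in ES, 73.1, 95.9 and 92.2 in 2iLIF and 49.8, 36.8 and 49.7 in EPSCM. Mirg, a host of microRNAs, had 19.1, 16.9 and 17.2 in ES, 40.5, 34.3 and 34.7 in 2iLIF and 12.03, 14.7 and 11.9 in EPSCM. All 3 noncoding RNAs were higher in every 2iLIF library than in the other 6.

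For 2iLIF against ES the differences of these RNAs were 0.82 ± 0.10 for Meg3, 0.85 ± 0.15 for Rian and 1.00 ± 0.10 for Mirg (0.999), all under the size limit. That of Mirg was called under 7 other settings, at 1.01 to 1.05, among them without ES replicate 1 (1.05), 2iLIF replicate 2 (1.04) or 2iLIF replicate 3 (1.03). Among them Mirg was called, in EPSCM against 2iLIF, at -1.44 ± 0.10 (adjusted p = 1.84e-06). Meg3 and Mirg were highest, and Rian lowest, in the library of each medium that stands apart, so that the ratio of Meg3 to Rian was 1.78, 1.83 and 2.42 in those libraries and 1.18 to 1.48 in the others. Without 2iLIF replicate 1 the Rian difference for EPSCM against 2iLIF moved from -0.93 ± 0.15 to -1.05 and was called.

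Dlk1, a paternally expressed membrane ligand, went the opposite way, at 1.68, 1.33 and 1.28 FPKM in ES, 0.0496, 0.0344 and 0.00875 in 2iLIF and 0.597, 0.707 and 0.596 in EPSCM. It was near the level of a few fragments in 2iLIF, and the difference for 2iLIF against ES was -1.23 ± 0.07 (adjusted p = 5.65e-07). Dlk1 passed the filter only through its ES libraries, so that p is no separate support for a higher level there. EPSCM lay above 2iLIF by 0.66 ± 0.07 and below ES by -0.57 ± 0.07 on a scale that compresses such low values; with a pseudocount of 0.1 both were called, at 2.49 and -1.06. Rtl1, a paternally expressed gene derived from a retrotransposon and needed in the placenta, stayed under 1 FPKM, at 0.244 ± 0.0511 in ES, 0.381 ± 0.0180 in 2iLIF and 0.120 ± 0.0262 in EPSCM. Dio3, a deiodinase gene at the far end of the domain that is read mostly from the paternal copy, was at 11.4 FPKM in 2iLIF against 1.17 in ES (difference 2.51) and 0.75 in EPSCM (difference of EPSCM against 2iLIF -2.83), both called.

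**Figure D3:**
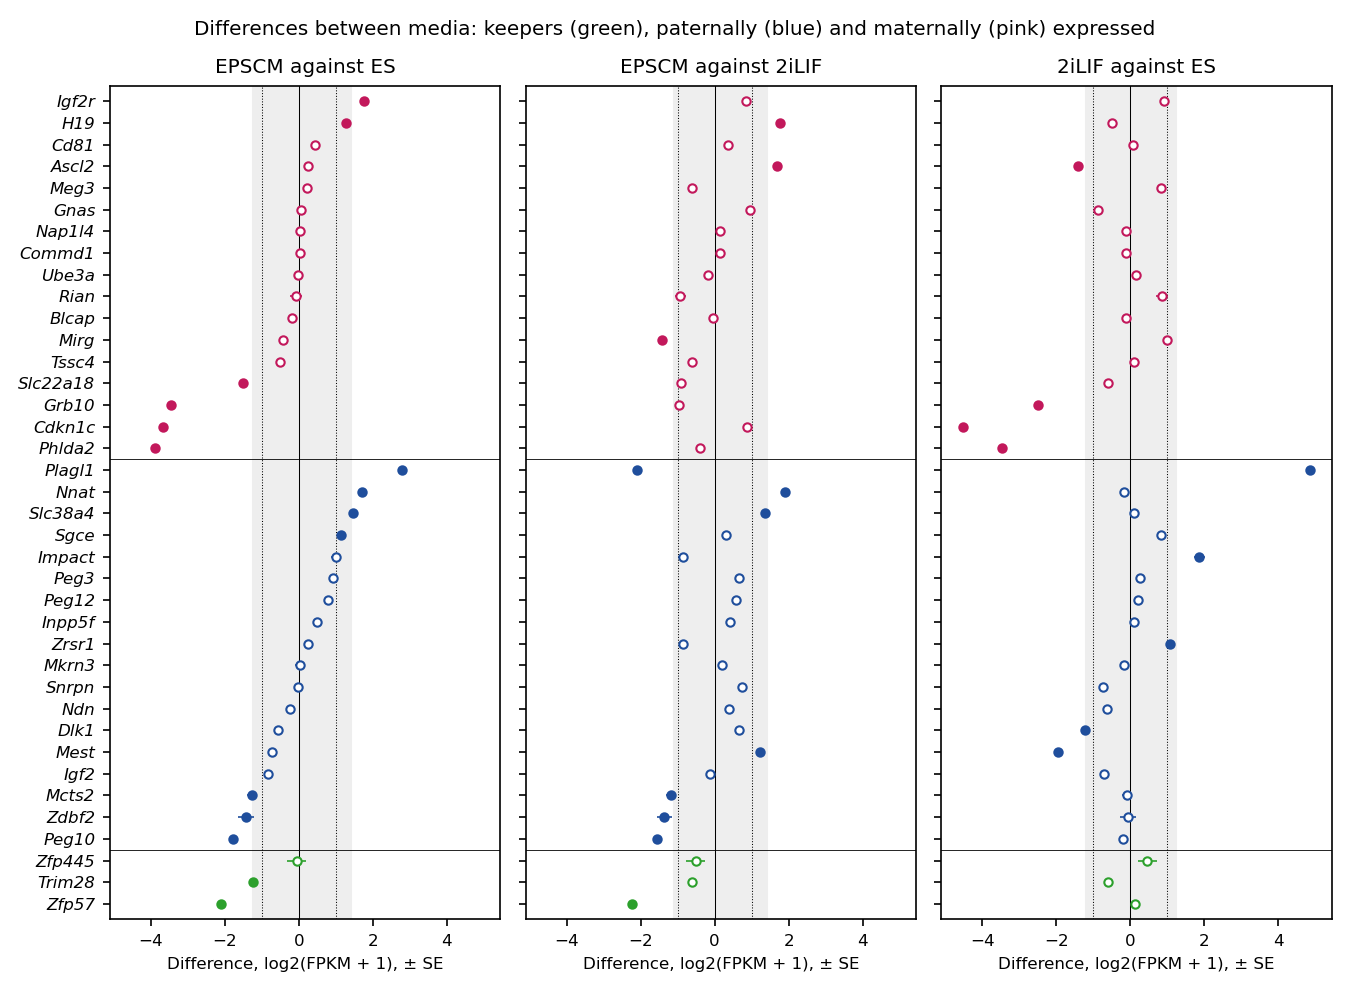
Difference on the log2(FPKM + 1) scale ± SE for each tested gene in the 3 comparisons; filled points were called, dotted lines mark the size limit of 1, and the grey band holds the middle 90% of all tested genes. Phlda2, Cdkn1c and Grb10 lie far to the left in EPSCM against ES and 2iLIF against ES but inside the limits in EPSCM against 2iLIF.

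Peg10 and Sgce are neighbours on chromosome 6 that are read in opposite directions from a shared control region, both from the paternal copy. Peg10, a retrotransposon-derived gene of the placenta, fell in EPSCM to 12.96, 12.04 and 13.4 FPKM from 40.6, 50.1 and 47.5 in ES and 36.6, 41.1 and 41.2 in 2iLIF. It differed from ES by -1.77 ± 0.09 (adjusted p = 2.31e-07) and from 2iLIF by -1.56 ± 0.09 (adjusted p = 5.05e-07). Sgce, a sarcoglycan gene, was at 6.45, 5.53 and 5.95 FPKM in EPSCM, 4.47, 4.92 and 4.41 in 2iLIF and 2.16, 2.11 and 2.15 in ES, a rise of 1.15 ± 0.07 for EPSCM against ES (adjusted p = 5.77e-07) that quantile normalization brought to 0.96. The levels of the pair lay closest in EPSCM: Peg10 stood 21.5 ± 2.52 times above Sgce in ES, 8.63 ± 0.618 times in 2iLIF and 2.14 ± 0.122 times in EPSCM (SD, n = 3).

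Mest, a paternally expressed hydrolase-like gene linked to growth, was at 38.7, 39.0 and 38.1 FPKM in ES, 9.10, 9.06 and 9.54 in 2iLIF and 21.7, 23.5 and 23.2 in EPSCM. The media did not overlap. It fell in 2iLIF against ES by 1.95 on the log2 scale (-1.95 ± 0.05, adjusted p = 7.62e-09), and EPSCM exceeded 2iLIF by 1.22 ± 0.05 (adjusted p = 1.03e-07). Peg3, a zinc finger gene, was at 3.94 ± 0.2495, 4.85 ± 0.186 and 8.27 ± 0.0210 FPKM in ES, 2iLIF and EPSCM, with a difference of 0.91 ± 0.06 for EPSCM against ES. Usp29, which is read outward from the same region, was under the filter with the highest mean also in EPSCM, at 0.366 ± 0.0626 FPKM. The maternally expressed Zim1 beside them stayed at 0.135 to 0.145 FPKM in all 3 media.

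The Snrpn-Ube3a domain of chromosome 7, known from Prader-Willi and Angelman syndromes, had no called member. Atp10a, a lipid flippase gene beside Ube3a, was lower in 2iLIF than in ES, at 0.36 against 2.19 FPKM (-1.23, called). It passed the filter only through its ES libraries, so that call is no separate support for a higher level there. Snrpn, a splicing protein gene, was lowest in 2iLIF, at 31.5, 31.1 and 30.7 FPKM against 53.9, 53.1 and 51.8 in ES and 49.8, 54.3 and 52.8 in EPSCM, with a difference of -0.75 ± 0.05 for 2iLIF against ES. Ndn, which restrains growth of neurons and other cells, had the same order, at 3.13 ± 0.139 FPKM in 2iLIF against 5.44 ± 0.762 in ES and 4.46 ± 0.497 in EPSCM. Peg12 was at 0.3004 ± 0.0495 FPKM in ES and 1.25 ± 0.0231 in EPSCM (0.79 ± 0.05), which was called with a pseudocount of 0.5, at 1.13. Mkrn3 stayed at means of 2.79 to 3.34 FPKM, with overlapping media. Ube3a, a ubiquitin ligase imprinted only in neurons, was at 4.14 to 4.84 FPKM. Magel2 was under the filter, at 0.122 ± 0.0659 FPKM or less.

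Several paternally expressed genes are young copies of other genes set inside a host gene. Mcts2, a copy of Mcts1 inside H13, was at 32.1, 39.5 and 39.8 FPKM in ES, 31.7, 37.2 and 35.3 in 2iLIF and 17.2, 12.1 and 15.7 in EPSCM. EPSCM was lower in every library, by -1.26 ± 0.13 against ES (adjusted p = 2.67e-05) and -1.17 ± 0.13 against 2iLIF (adjusted p = 5.17e-05). Reads of Mcts1 may be shared with it, so the level is uncertain. The host H13 was at 13.98, 9.63 and 8.84 FPKM in ES, 2iLIF and EPSCM and was not called. Zrsr1, a splicing factor copy inside Commd1 on the other strand, was higher in 2iLIF, at 12.2, 12.7 and 12.3 FPKM against 5.25, 5.54 and 5.22 in ES and 6.18, 6.84 and 6.39 in EPSCM. Its difference of 1.08 ± 0.06 for 2iLIF against ES (adjusted p = 3.76e-07) fell to 0.94 with quantile normalization. Commd1 itself, a regulator of copper and NF-kappaB, had means of 92.1 to 102 FPKM with overlapping media.

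Nap1l5, inside Herc3, stayed under the filter but did not overlap between EPSCM, at 0.610, 0.464 and 0.980 FPKM, and the other 6 libraries, at 0.0236 to 0.161. The host Herc3 rose from 2.02 to 8.09 FPKM between ES and EPSCM (1.59, called). Peg13, a noncoding RNA inside Trappc9, was at 0.238 ± 0.0481, 0.633 ± 0.0159 and 0.860 ± 0.0609 FPKM in ES, 2iLIF and EPSCM, while Trappc9 was not called. Inpp5f, a phosphatase gene of which only a variant form is imprinted, was at 6.22 ± 0.295, 6.68 ± 0.204 and 9.24 ± 0.488 FPKM, short of a call.

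Nnat, a paternally expressed proteolipid gene inside Blcap, was at 8.64, 9.45 and 8.71 FPKM in EPSCM, 2.15, 2.21 and 1.73 in ES and 1.67, 1.73 and 1.64 in 2iLIF. The EPSCM libraries stood above those of both other media, by 1.72 ± 0.07 against ES (adjusted p = 1.11e-07) and 1.89 ± 0.07 against 2iLIF (adjusted p = 6.41e-08). Blcap, the maternally expressed partner in the brain, did not follow, with means of 21.6 to 24.5 FPKM and no call. The ratio of Blcap to Nnat levels was 12.2 ± 1.41 in ES, 13.2 ± 0.393 in 2iLIF and 2.42 ± 0.117 in EPSCM (SD, n = 3).

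Slc38a4, an amino acid transporter that is imprinted in the early embryo and placenta through histone methylation, had 62.9, 70.0 and 63.0 FPKM in ES, 69.7, 71.9 and 69.4 in 2iLIF and 179.7, 178 and 188 in EPSCM, the high group. The differences were 1.47 ± 0.06 against ES (adjusted p = 6.72e-08) and 1.36 ± 0.06 against 2iLIF (adjusted p = 9.36e-08). Others are known for this kind of imprint. Sfmbt2, a polycomb-related gene, was at 1.49, 4.36 and 7.68 FPKM in ES, 2iLIF and EPSCM and was called higher in both against ES, at 1.11 for 2iLIF and 1.80 for EPSCM. Gab1, Smoc1 and Jade1 were called in no comparison.

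Impact, a regulator of the GCN2 stress kinase on chromosome 18, was at 16.1, 20.8 and 18.4 FPKM in ES, 59.3, 76.1 and 73.7 in 2iLIF and 41.5, 31.4 and 41.0 in EPSCM. The media did not overlap, and 2iLIF exceeded ES by 1.86 ± 0.14 (adjusted p = 3.85e-06). For EPSCM against ES the difference, 1.00 ± 0.14 (adjusted p = 1.76e-04), fell just under the limit and was called without EPSCM replicate 2 (1.13), without ES replicate 2 (1.09) and without ES replicate 3 (1.00). Zdbf2, a paternally expressed gene of chromosome 1 that acts in feeding circuits, was at 6.86, 11.1 and 10.1 FPKM in ES, 6.69, 9.94 and 10.1 in 2iLIF and 3.19, 2.04 and 3.33 in EPSCM. EPSCM was low, by -1.42 ± 0.21 against ES (adjusted p = 2.56e-04) and -1.36 ± 0.21 against 2iLIF (adjusted p = 3.95e-04). Over the 657 tested genes of chromosome 1 the median was -0.29 in EPSCM against ES, where all genes had 0.09, and -0.05 in EPSCM against 2iLIF; its part in the Zdbf2 result was not tested. Zdbf2 was also 0.63 to 0.67 times as high in the library of each medium that stands apart.

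Gnas, a complex locus for the stimulatory G protein subunit that is read from the maternal copy in some tissues only, was at 131, 120.1 and 122 FPKM in ES, 69.1, 64.0 and 66.6 in 2iLIF and 124, 140.1 and 125 in EPSCM. The 2iLIF libraries were low, at -0.89 ± 0.07 against ES, and EPSCM exceeded 2iLIF by 0.95 ± 0.07, which passed the size limit with quantile normalization only (1.04). The value sums several transcripts of the locus. Dcn, a matrix proteoglycan imprinted in the placenta and abundant in fibroblasts, was listed at 0 in 8 libraries and at 0.0299 FPKM in EPSCM replicate 1.

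Maternally and paternally expressed genes were then compared as classes. The maternal class held nearly all of the genes placed here among those with an imprint known only from certain tissues or isoforms. In EPSCM against ES, 2 of 17 tested maternally expressed genes were higher and 4 lower, against 4 higher and 3 lower of 18 tested paternally expressed genes. The medians of the differences were -0.03 and 0.13, where all tested genes had 0.09. In EPSCM against 2iLIF, 2 maternally expressed genes were higher and 1 lower, with a median of -0.04, and 3 paternally expressed genes were higher and 4 lower, with a median of 0.36; the median of all genes was 0.03. In 2iLIF against ES, no maternally expressed gene was higher and 4 were lower, with a median of -0.12. The paternally expressed genes there had a median of -0.08, with 3 higher and 2 lower, including Dlk1, which passed the filter only through its ES libraries. All genes had a median of 0.03 there.

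Both classes thus held genes that moved in either direction, and the class medians were within 0.4 of 0 in each comparison, on the log2(FPKM + 1) scale. The paternal median for EPSCM against 2iLIF turned to -0.84 when genes needed a mean of 5 FPKM, so it depends on which genes are counted. The largest falls from ES on this scale were on the maternal side, where Phlda2, Cdkn1c and Grb10 had differences of -4.53 to -2.50 over EPSCM and 2iLIF. The largest rise, that of Plagl1, was on the paternal side. Paternally expressed genes also had called falls from ES: Mest (-1.95) and Dlk1 (-1.23) in 2iLIF, and Peg10 (-1.77), Zdbf2 (-1.42) and Mcts2 (-1.26) in EPSCM. Dlk1 passed the filter only through its ES libraries, so its call is no separate support for a fall. In mean FPKM, the falls in 2iLIF were 46.3-fold for Dlk1, at low levels, and 45.5-fold for Cdkn1c. The median size of a difference was 0.44 for maternally and 0.88 for paternally expressed genes in EPSCM against ES, against 0.50 for all genes, and 0.82 and 0.44 in 2iLIF against ES, against 0.40. In EPSCM against 2iLIF it was 0.85 and 0.79, against 0.42.

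**Figure D4:**
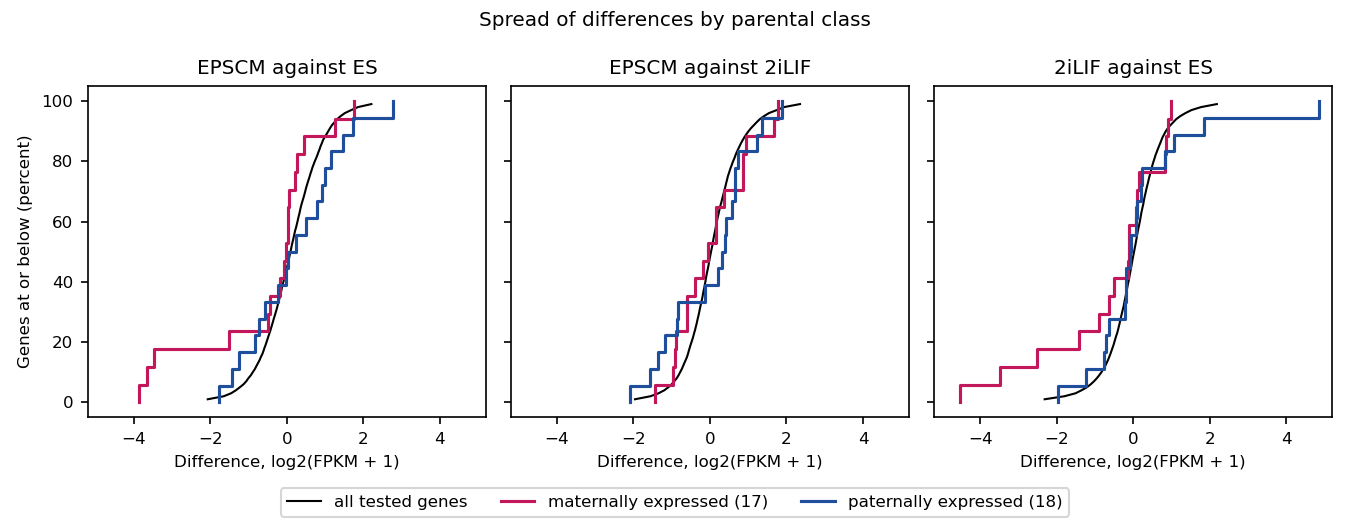
Share of genes at or below each difference, on the log2(FPKM + 1) scale, for maternally expressed genes (pink), paternally expressed genes (blue) and all tested genes (black) in the 3 comparisons. The curve of all genes is drawn from its lowest to its highest percentile, leaving out the extreme genes. Maternally expressed genes reach down to -4.53 and paternally expressed genes up to 4.86 in 2iLIF against ES.

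The kind of imprint was a second way to divide the 44 imprinted genes. Of the 10 placed here in a group with an imprint known only from certain tissues or isoforms, 9 were tested. Among them were Ube3a, Commd1, Blcap, Cd81 and Nap1l4. Of those 9, 1 was called in EPSCM against ES, 0 in EPSCM against 2iLIF and 1 in 2iLIF against ES, and in both cases it was Grb10; the background was 19.7%, 16.1% and 14.7% of all tested genes. Of the other 26 tested genes, 12, 10 and 8 were called in the same order. The 26 include Slc38a4, imprinted in the early embryo and placenta, and Igf2r, silenced by Airn in other tissues. Both had calls, so the counts depend on where such genes are placed. The median size of a difference was 0.18, 0.36 and 0.12 in the first group and 0.95, 0.87 and 0.79 in the other, against 0.50, 0.42 and 0.40 over all genes. No test was made of this contrast. All of the 10 but Inpp5f were maternally expressed, so this division overlaps with the parental classes and their parts cannot be told apart.

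A further list of 52 symbols held hosts and neighbours of the imprinted genes and some other genes known for imprinting, such as Sfmbt2 and Dio3; 28 were tested. In EPSCM against ES 6 were higher and 2 lower, in EPSCM against 2iLIF 3 higher and 5 lower, and in 2iLIF against ES 5 higher and 3 lower, against backgrounds of 19.7%, 16.1% and 14.7% called in either direction. Adam23, a neighbour of Zdbf2 on chromosome 1 that encodes a cell adhesion protein, had the largest difference, falling from 43.7 FPKM in ES to 7.53 in EPSCM (-2.39) and 5.02 in 2iLIF (-2.89). Qpct, an enzyme that modifies peptide ends, rose from 0.72 FPKM in ES to 7.81 in EPSCM (2.36) and 5.63 in 2iLIF (1.95).

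Factors of imprint maintenance and DNA methylation, a list of 27 genes beside the 3 keepers, were all tested. In EPSCM against ES 1 was higher and 2 lower, in EPSCM against 2iLIF 4 higher and 2 lower, and in 2iLIF against ES 0 higher and 2 lower, beside the same backgrounds of 19.7%, 16.1% and 14.7%. Dnmt1, which copies methylation at replication, and its partner Uhrf1 were called in no comparison, at means of 71.8 to 99.6 and 182 to 298 FPKM. Setdb1, the histone methyltransferase recruited by TRIM28, was at 33.0, 59.8 and 31.1 FPKM in ES, 2iLIF and EPSCM and was not called. Dppa3, which protects the egg's methylation, differed by 3.03 for EPSCM against ES and by 2.61 for EPSCM against 2iLIF. The methyltransferase Dnmt3a and its cofactor Dnmt3l were low in 2iLIF, at -2.34 and -2.49 against ES, while Dnmt3b was low in EPSCM, at -1.62 against ES.

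Markers of other cell types were measured beside these results, since H19, Igf2, Dlk1 and Dcn are abundant in differentiated tissue. The 10 fibroblast markers summed to 17.5 to 20.4 FPKM in ES, 6.202 to 6.81 in 2iLIF and 15.5 to 18.97 in EPSCM. Of these, Col3a1 and Fap were at or near 0 in every medium, Thy1, also found on other cell types, was at 14.4, 0.41 and 6.02 FPKM in ES, 2iLIF and EPSCM and called in each comparison, and Pdgfrb was at 1.29, 3.28 and 5.74 and called higher in EPSCM than in ES. The 10 primitive endoderm markers summed to 54.9 to 60.7, 44.5 to 49.8 and 66.0 to 74.1 FPKM in the same order. Col4a1, Gata6 and Gata4 were called higher and Sox7 lower in EPSCM than in ES. Col4a1 (5.79, 3.31 and 27.1 FPKM) was the largest part of the EPSCM sum. Lama1 (21.7, 28.7 and 17.1) and Lamb1 (23.5, 11.3 and 14.9), the largest parts in ES and 2iLIF, were lower in EPSCM than in ES without a call. The 10 trophoblast markers summed to 29.2 to 33.5, 75.9 to 87.3 and 53.3 to 63.3 FPKM. Elf5 and Tpbpa were at or near 0. Krt8 (6.90, 47.6 and 6.16 FPKM), the largest part of the 2iLIF sum, and Cdx2 (0.11, 2.85 and 0.04) were called higher in 2iLIF than in both other media. Eomes (1.03, 3.297 and 4.40) was called higher in 2iLIF and EPSCM than in ES. Tfap2c (18.2, 21.7 and 37.3) and Krt18 (4.22, 4.61 and 7.42) were highest in EPSCM but called in no comparison. The 10 neural and mesoderm markers summed to 67.1 to 75.4, 38.0 to 42.7 and 31.8 to 34.5 FPKM. Tubb3 was the largest part in each medium (62.9, 19.6 and 16.2) and was called lower in both other media than in ES. T was called higher in 2iLIF than in both other media, and Nes (2.34, 1.76 and 8.30) higher in EPSCM than in both. Of these markers, T and Cdx2 passed the filter only through 2iLIF, Gata6 only through EPSCM and Sox7 only through ES. Their calls are thus no separate support for a higher level there. The part of all these markers in the results was not tested, and in bulk RNA fewer cells of a type and less RNA per cell cannot be told apart.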

How the data were processed

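Polyadenylated RNA of 9 libraries was sequenced from stranded libraries, per the labels' protocols. The authors' deposited table gives FPKM per gene symbol and library, made with STAR and Cuffnorm on mm9 per the submitters' processing notes; no source used here gives their versions, the annotation, the scaling or the use of strand. FPKM depends on annotated length and library total, so abundant genes can shift others. All 9 columns were used. Genes reaching 1 FPKM in 3 or more libraries (12330 of 24819) were fitted as log2(FPKM + 1) in 1 limma model over all libraries (limma 3.58.1, R 4.3.3, trended empirical Bayes), with Benjamini-Hochberg adjustment over all tested genes. The fit was tested on simulated data. By rule, all 47 members were named, plus hosts of nested genes and, of each other list, at most 4 called genes a comparison with the largest differences and at least 1 FPKM in the higher medium; some genes that qualify are left unprinted. Other genes of those lists, markers included, were named after their values were seen. Members and lists were chosen with earlier results of these data known. Depth was estimated from steps between low values of 1642 genes with 1 annotated transcript in GENCODE. Chromosomes came from RefSeq tables of GRCm38. Replicate numbers follow accession order and pair no libraries. Alternatives included other pseudocounts, filters, scalings, covariates and leaving out each library.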

Additional observations from a re-analysis of the deposited data

How the results depend on the processing

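Under the other settings run on single genes, at most 21 for each, 33 of 35 called differences kept their call in every setting that tested the gene, and 0 reversed; subtracting chromosome medians was run for counts of members, which did not change; quantile normalization ended those of Sgce for EPSCM against ES (0.96) and Zrsr1 for 2iLIF against ES (0.94). Of 79 uncalled differences 15 were called under at least 1 setting. No paired analysis was possible because the labels give no replicate number shared between media. The table holds no counts. For a transcript of about 1 kb, levels under about 0.1 FPKM rest on few fragments, and for longer transcripts on more.

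Of all genes, 2423 were called between EPSCM and ES, 1979 between EPSCM and 2iLIF and 1817 between 2iLIF and ES. Requiring a mean of 5 FPKM, which tests fewer genes, gave 1532, 1025 and 1055, and a pseudocount of 0.1 gave 2738 between 2iLIF and ES. Calls for EPSCM against 2iLIF were 1250 higher and 729 lower, and 1010 and 902 with quantile normalization. The 5 FPKM filter left 3 members higher in EPSCM against ES and 2 in EPSCM against 2iLIF. A pseudocount of 0.1 gave 8 higher in EPSCM against 2iLIF and 5 in 2iLIF against ES.

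Class medians moved as follows; except with other filters, which change the genes counted, the cause was not tested. For maternally expressed genes in EPSCM against ES, the median was 0.041 with array weights, -0.074 at 5 FPKM, 0.020 with quantile normalization, -0.11 with the same median ratio and -0.066 to 0.011 without single libraries. In EPSCM against 2iLIF it was -0.048 with array weights, -0.030 with close libraries averaged, 0.013 with no filter, -0.021 with quantile normalization, -0.092 with the same median ratio, -0.060 with the same sum and -0.071 to -0.0036 without single libraries. In 2iLIF against ES it was -0.090 with array weights, 0.014 with quantile normalization, -0.17 with the same median ratio, -0.065 with the same sum and -0.15 to -0.11 without single libraries. For paternally expressed genes in EPSCM against ES it was 0.24 at 5 FPKM, 0.23 with no filter, 0.062 with quantile normalization and 0.049 with the same median ratio. In EPSCM against 2iLIF it was -0.84 at 5 FPKM, 0.19 with no filter and 0.21 with quantile normalization. In 2iLIF against ES it was 0.089 at 5 FPKM, 0.084 with no filter and -0.13 to 0.021 without single libraries.

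Signs turned for 12 uncalled differences, none of which passed the call. In 2iLIF against ES quantile normalization turned Commd1 (0.029), Inpp5f (-0.042) and Nap1l4 (0.014). In EPSCM against ES it turned Mkrn3 (-0.22), Rian (0.020) and Snrpn (0.091). There the same median ratio turned Commd1 (-0.071), Gnas (-0.037), Mkrn3 (-0.055) and Nap1l4 (-0.070), and the same sum Snrpn (0.018). Array weights turned Mkrn3 (-0.069), Rian (0.013) and Ube3a (0.059). Library number of at least 10 as a covariate turned Commd1 (-0.026), Mkrn3 (-0.057), Rian (0.022) and Zfp445 (0.12). Without single libraries, Commd1 ranged from -0.021 to 0.11, Mkrn3 from -0.041 to 0.095, Rian from -0.17 to 0.068, Snrpn from -0.046 to 0.016, Ube3a from -0.082 to 0.032 and Zfp445 from -0.30 to 0.13, and in 2iLIF against ES Zdbf2 ranged from -0.25 to 0.11.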
